A study of Homo sapiens with 21 samples.

Results

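Direct target genes of p53 were followed in HepG2 cells exposed to caffeine over a range of doses. The set held 33 genes of 37637 features in the count table. They were listed by symbol as p53 targets, and the list was chosen with earlier results of these data known. The symbols were matched to Ensembl identifiers, and each of the 33 matched 1 identifier. HepG2 is an established human liver cancer line. Treatment lasted 6 h at 7 caffeine doses, namely 0, 0.01, 0.1, 1, 10, 100 and 1000 µM, and each dose has 3 libraries. Every group, the 0 µM group included, was washed and moved from serum-containing DMEM into fresh DMEM without serum for those 6 h. Polyadenylated RNA was sequenced and counted per gene. The series text gives coumarin as the agent of the control group, but the labels of its 3 samples read caffeine 0 µM and were used here.

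The tumour suppressor p53 is a transcription factor that binds a specific DNA element in or near its target genes. Its targets halt the cell cycle, repair DNA, promote cell death or tune metabolism, and several of them, MDM2 first, act back to restrain p53. The protein is regulated mostly through its stability and modification, so its target transcripts are a common readout of its activity. Caffeine, an antagonist of adenosine receptors, is at high concentrations also known to inhibit ATM and ATR, kinases that act upstream of p53.

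The element p53 binds is made of a pair of adjoining 10-base repeats, each with C at position 4 and G at position 7. RefSeq promoter windows (GRCh38.p14) of 250 bases before a transcript start were searched for it on both strands, allowing 3 mismatches in 20 bases. No other motif was searched, and the tolerance was chosen after the sequences had been seen. Windows were on hand for 25 of the 33 genes, and 6 of these (24%) held a match, against 1.12% of 27305 genes searched in the same way. Per window the shares were 17.9% of 39 and 0.914% of 35116. The matches are shown because they place the recognised letters beside the expression values that follow. Among the genes given library by library below, CDKN1A, BTG2, DDB2, POLH, TRIAP1, SPATA18 and EDA2R had windows without a match. For GADD45A, PHLDA3, TP53INP1, CMBL and TRIM22 no window was on hand. A match describes letters and not occupancy. In the stretches below, capitals mark the matched 20 bases, read 5′ to 3′ on the gene's strand. The MDM2 stretch lies at chr12:68808767-68809001 on the plus strand, inside the MDM2 gene and outside its annotated exons, with the match, of 2 mismatches, 94 bases before a start. The SESN1 stretch lies at chr6:109008989-109009238 on the minus strand, with the match, of 3 mismatches, 49 bases before a start.
MDM2: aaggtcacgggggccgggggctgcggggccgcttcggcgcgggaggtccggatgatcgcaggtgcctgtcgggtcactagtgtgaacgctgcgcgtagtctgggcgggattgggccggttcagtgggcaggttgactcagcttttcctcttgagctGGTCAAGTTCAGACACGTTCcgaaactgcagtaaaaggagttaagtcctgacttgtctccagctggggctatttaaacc
SESN1: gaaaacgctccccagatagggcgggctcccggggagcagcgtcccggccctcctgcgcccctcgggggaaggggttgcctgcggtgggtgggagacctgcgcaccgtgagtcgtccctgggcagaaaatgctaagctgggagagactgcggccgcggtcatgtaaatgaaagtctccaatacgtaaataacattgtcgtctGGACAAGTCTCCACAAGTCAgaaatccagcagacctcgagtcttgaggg

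In the other 4 genes the match fell in annotated exons, so the 20 matched bases alone are given, all in capitals. The FAS match lies at chr10:88991309-88991328 on the plus strand, 122 bases before a start, with 2 mismatches. The AEN match lies at chr15:88621306-88621325 on the plus strand, 34 bases before a start, with 2 mismatches. The FDXR match lies at chr17:74872996-74873015 on the minus strand, 21 bases before a start, with 3 mismatches. The RPS27L match lies at chr15:63157527-63157546 on the minus strand, 69 bases before a start, with 3 mismatches.
FAS: GGACAAGCCCTGACAAGCCA
AEN: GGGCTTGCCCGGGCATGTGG
FDXR: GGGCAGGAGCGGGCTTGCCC
RPS27L: GGCCTAGAGCAGACAAGCCC

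The 21 libraries held 28043623 to 40827833 counts each (median 32497612). Hepatocyte markers were abundant, with ALB, APOB and SERPINA1 each above 5000 CPM at 0 µM (counts scaled to a common library size), and the 9 markers summed to 21975 to 23955 CPM at 0 µM and 21295 to 22554 CPM at 1000 µM. Among the 9, AFP, APOA1 and FGB fell at 1000 µM and APOB rose. Among 11 listed markers of blood, fibroblast and endothelial cells, PECAM1 was not matched to a single identifier and was left out. PTPRC, CD3E, COL1A2 and DCN had 0 or 1 count in each library. LYZ made up most of the summed level of the markers measured, 1210 to 1426 CPM at 0 µM and 926 to 1279 CPM at 1000 µM. Of the 3 tested, CD68 (a mean of 76.6 CPM at 0 µM) and LYZ did not pass, and PDGFRB rose from a mean of 4.45 to 8.59 CPM at 1000 µM, whose part in the results was not tested. Transcripts of the mitochondrial genome took 4.95% to 14.2% of counts. All 33 p53 targets passed the expression filter, among 17468 genes tested. CPM values are scaled for library composition, and a level can be compared between genes only per length. Per kilobase of all annotated exons together, CDKN1A stood highest at 0 µM, at 64.6 CPM, and TRIM22 lowest, at 0.78. That length can far exceed 1 main transcript (for MDM2, 13284 against 2523 bases), so the order depends on the length used. The series text calls the libraries of a dose biological replicates without naming separate cultures, so the p-values measure the spread between these libraries, which may be partly technical.

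At 1000 µM, 16 of the 33 targets fell and 1 rose against 0 µM, at an adjusted p under 0.05 (quasi-likelihood test of edgeR, Benjamini-Hochberg adjusted over all genes tested, as for every adjusted p here). The background was wide, since 20.6% of all tested genes fell and 20.6% rose in the same comparison. The median log2 fold change over the 33 genes was -0.35, with a range from -1.37 to 0.71, and the median over all tested genes was -0.03. In 18 of the 33 genes all 3 libraries at 1000 µM lay under all 3 at 0 µM, against 27.3% of all genes, and in 2 they lay above, against 25.9%. In bulk RNA, fewer cells carrying a transcript and less of it per cell cannot be told apart. By listed group, the genes that fell included 4 of 6 under arrest, 2 of 4 under repair and 4 of 10 under death and survival. They also included 3 of 5 metabolic genes and 3 of 5 genes of other function. None of the 3 feedback genes passed (edgeR), with 0 at an unadjusted p under 0.05, which 49.4% of all genes had. DESeq2 called 0 of them, with its share of all genes not given here. With fold changes corrected for transcript length and GC content, PPM1D of these 3 fell.

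The median position of the 33 targets was followed library by library, as the median log2 CPM difference from the mean of the controls. The 3 libraries at 0 µM lay between -0.03 and 0.03. At 100 µM the 3 libraries lay between -0.29 and -0.19, and at 1000 µM between -0.42 and -0.24. Libraries at 0.01 to 10 µM lay between -0.21 and 0.10, and 1 µM replicate 3 and 10 µM replicate 1 reached the range seen at 100 µM. These libraries had mitochondrial shares of 14.2% and 11.3%, and 0.01 µM replicate 1, at 11.7%, had a target median of -0.01. Within each of 0.1, 1, 10 and 100 µM a library with a higher mitochondrial share had a lower target median. Within 0, 0.01 and 1000 µM the orders differed, and the part of this share in the result was not tested. The same median over all tested genes stayed between -0.03 and 0.01 in the 21 libraries. At 100 µM 27 to 29 of the 33 targets were under the control mean in each library, and at 1000 µM 23 to 28 were.

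**Figure D1:**
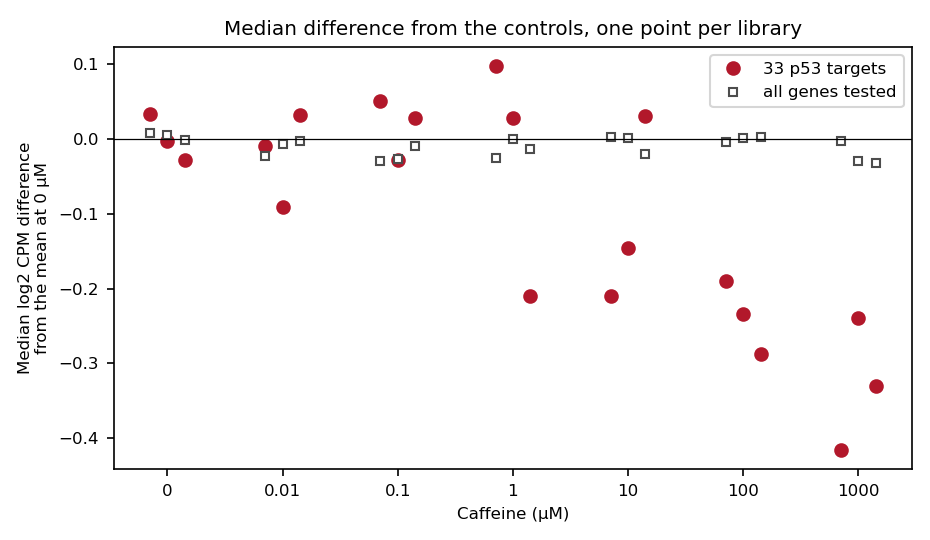
Median difference in log2 CPM from the mean of the 3 libraries at 0 µM (vertical axis) at each caffeine dose in µM (horizontal axis), with 1 point per library. Filled points are the 33 p53 targets and open squares all genes tested; the targets lie between -0.42 and -0.19 in the 6 libraries at 100 and 1000 µM, while all genes stay between -0.03 and 0.01.

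**Figure D2:**
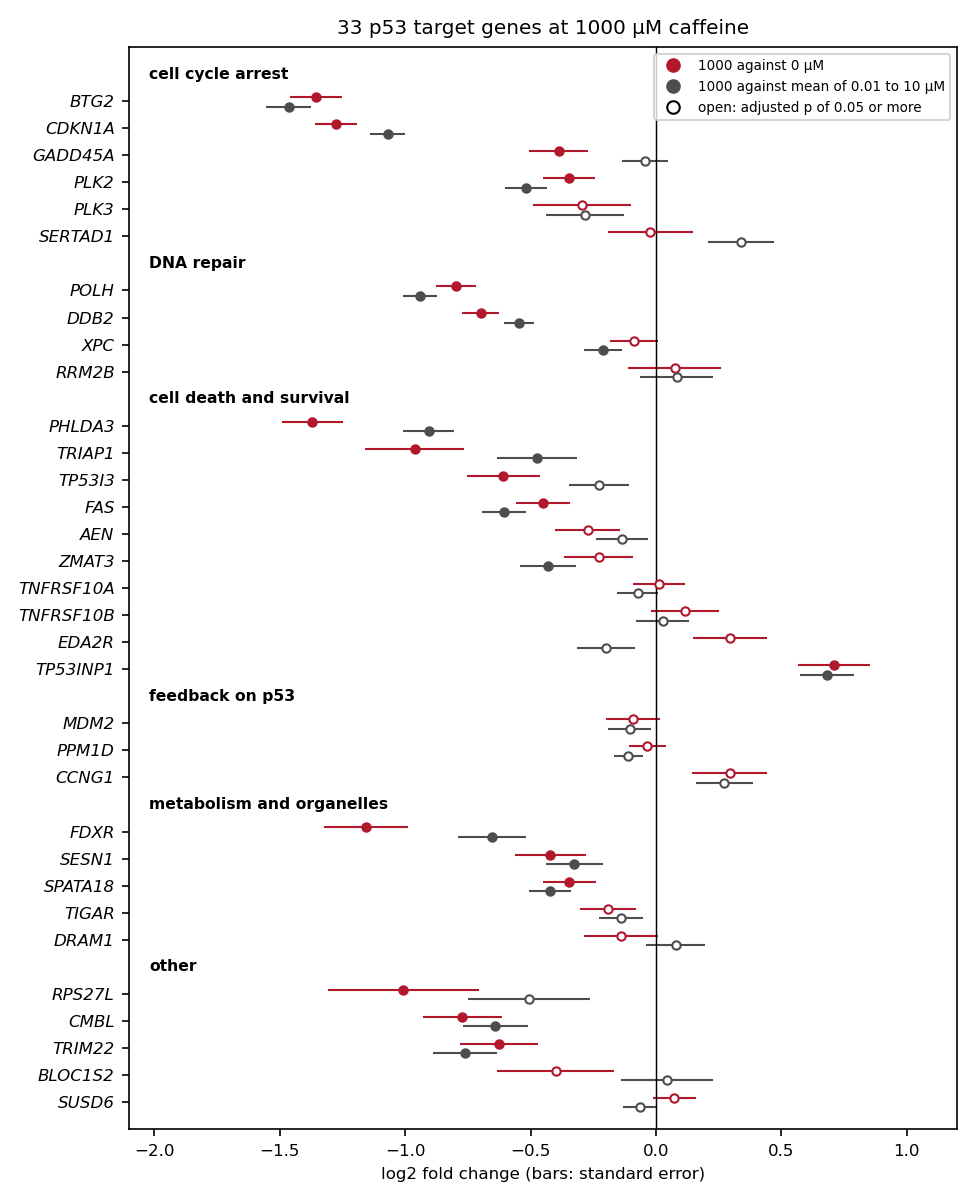
Log2 fold change of each p53 target at 1000 µM (horizontal axis), by function, against 0 µM and against the mean of 0.01 to 10 µM, with bars for the standard error. Filled points passed an adjusted p of 0.05; most filled points lie left of 0, and TP53INP1 lies right of it in both comparisons.

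At 0.1 or 1 µM alone 0% of all genes passed against 0 µM (edgeR). The 12 libraries at 0.01, 0.1, 1 and 10 µM together had 8.93% lower and 9.31% higher, so 1000 µM was also compared with them. Against this low-dose mean 15 targets fell and 1 rose, with 14.4% of all genes lower and 16.3% higher (quasi-likelihood test of edgeR, Benjamini-Hochberg adjusted). Of the 16 targets lower than at 0 µM, 13 were also lower than at the low doses. They were BTG2, CDKN1A, CMBL, DDB2, FAS, FDXR, PHLDA3, PLK2, POLH, SESN1, SPATA18, TRIAP1 and TRIM22. GADD45A, RPS27L and TP53I3 passed against 0 µM alone, and XPC and ZMAT3 against the low doses alone. In 10 targets each library at 1000 µM lay under all 12 low-dose libraries, against 6.42% of all genes, and in 1 each lay above, against 9.23%. The median log2 difference over the 33 targets was -0.23, against -0.02 over all genes.

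Of the 6 genes listed under cell cycle arrest, CDKN1A, BTG2, GADD45A and PLK2 fell at 1000 µM. CDKN1A (ENSG00000124762.13, GRCh38 chr6:36676460-36687339) encodes p21, the inhibitor of cyclin-dependent kinases through which p53 halts the cycle. It stood at 195, 208 and 188 CPM in the 3 libraries at 0 µM, at 110, 111 and 105 at 100 µM, and at 82.1, 86.7 and 75.4 CPM at 1000 µM. The 12 low-dose libraries ranged from 143 to 195 CPM with a median of 173. The groups at 0, 100 and 1000 µM did not overlap, and the low doses lay between those at 0 and 100 µM with overlap at the top only. CDKN1A fell by 1.27 ± 0.08 (SE) on the log2 scale at 1000 µM (adjusted p 8.5e-09, quasi-likelihood test of edgeR, Benjamini-Hochberg adjusted), lower in 3 of 3 libraries. At 100 µM it fell by 0.86 ± 0.08 (adjusted p 3.9e-05, edgeR), and from 100 to 1000 µM by a further 0.42 ± 0.08 (adjusted p 0.0025).

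BTG2 (ENSG00000159388.6, chr1:203305491-203309602), an antiproliferative gene, passed against 0 µM at 100 and 1000 µM and at no lower dose. Its 3 libraries read 19.2, 22.6 and 19.3 CPM at 0 µM, 14.9, 12.8 and 13.4 at 100 µM, and 8.13, 8.15 and 7.58 CPM at 1000 µM. The low-dose libraries ran from 18.5 to 27.2 CPM with a median of 21.7. All 3 libraries at 1000 µM were under all others, and the low doses overlapped the controls. BTG2 fell by 1.35 ± 0.10 (SE) on the log2 scale against 0 µM (adjusted p 6.9e-08, edgeR) and by 1.46 ± 0.09 against the low doses (adjusted p 1.2e-09, edgeR). Between 100 and 1000 µM it fell by 0.78 ± 0.10 (adjusted p 7e-05, edgeR).

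GADD45A (ENSG00000116717.13, chr1:67685061-67688338), a stress gene that acts on the G2 checkpoint and repair, followed another course. Its libraries stood at 56.5, 52.3 and 53.2 CPM at 0 µM, 42.4, 37.6 and 33.5 at 100 µM, and 41.6, 45.7 and 36.5 CPM at 1000 µM. The low doses already ranged from 34.3 to 51.5 CPM with a median of 43.2, so every treated library lay under the controls. GADD45A fell by 0.39 ± 0.12 (SE) on the log2 scale at 1000 µM (adjusted p 0.014, edgeR), while its difference from the low doses was -0.04 (adjusted p 0.76). With fold changes corrected for transcript length and GC content the GADD45A difference at 1000 µM was -0.13 (adjusted p 0.281, edgeR). It also missed the threshold without 0 µM replicate 1 (adjusted p 0.0542, edgeR) or 1000 µM replicate 3 (adjusted p 0.0838).

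The polo-like kinase gene PLK2 fell by 0.35 ± 0.10 (SE) on the log2 scale against 0 µM (adjusted p 0.012, edgeR) and by 0.52 against the low doses (adjusted p 0.00013). Its relative PLK3, at -0.30 (adjusted p 0.23, edgeR), did not pass. SERTAD1, a regulator of cyclin-dependent kinase 4 and E2F activity, stood at -0.02 against 0 µM (adjusted p 0.93, edgeR), and after correction for length and GC content it rose by 0.42 against the low doses (adjusted p 0.0076).

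**Figure D3:**
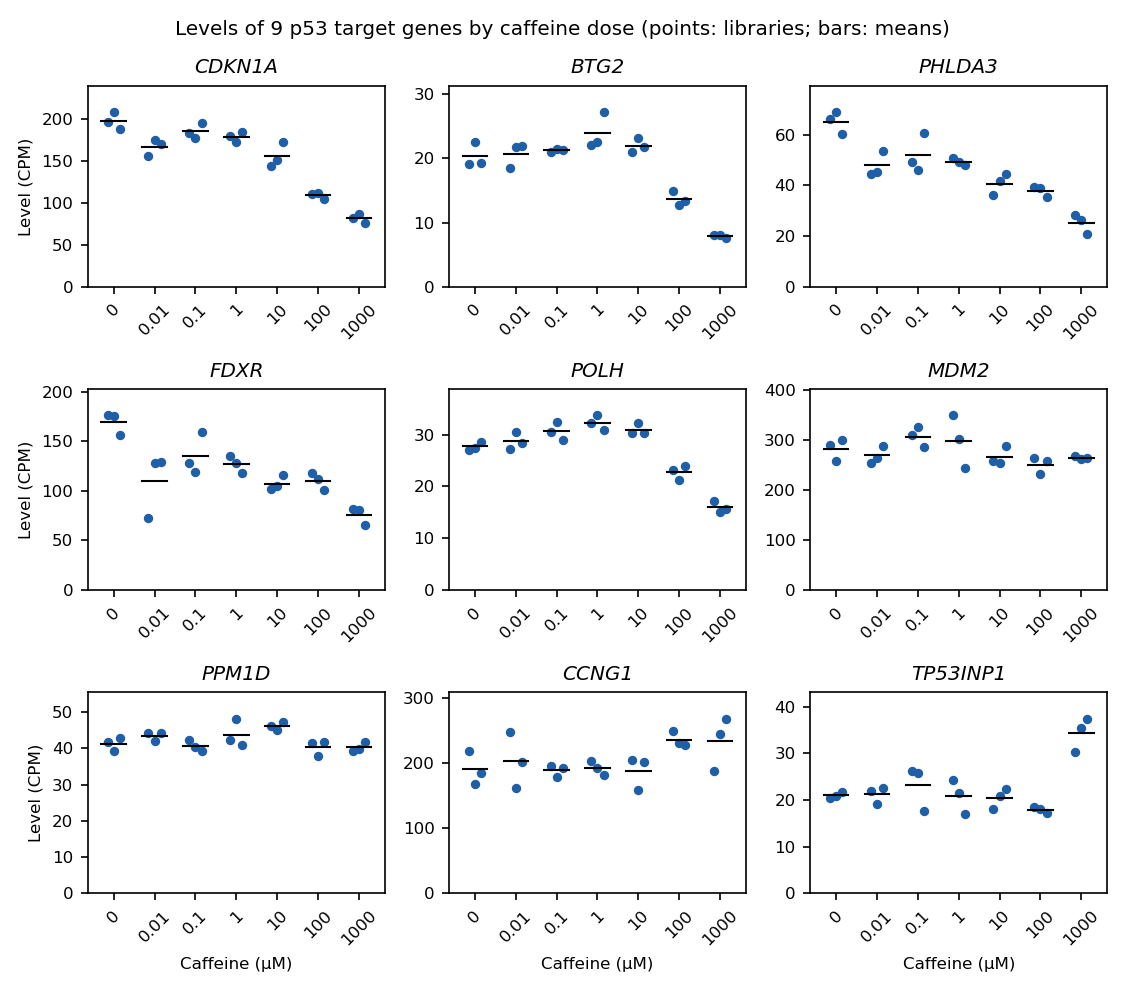
Level in CPM (vertical axis) of 9 p53 targets at each caffeine dose in µM (horizontal axis), with 1 point per library and a bar for the mean of 3. The CDKN1A mean goes from 197 CPM at 0 µM to 109 at 100 µM and 81.4 at 1000 µM, whereas MDM2 means stay between 251 and 307 CPM and TP53INP1 is high at 1000 µM alone.

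Among the DNA repair genes, DDB2 and POLH fell against 0 µM. DDB2 (ENSG00000134574.11, chr11:47214465-47239240) encodes the damage-recognition factor of nucleotide excision repair. It stood at 68.1, 64 and 66.2 CPM at 0 µM, 57.9, 57.1 and 53.6 at 100 µM, and 42.9, 42.5 and 36.7 CPM at 1000 µM. The low doses ran from 55.1 to 63.2 CPM with a median of 59.9, under the controls and above every library at 1000 µM. DDB2 fell by 0.70 ± 0.07 (SE) on the log2 scale against 0 µM (adjusted p 1.8e-06, edgeR) and by 0.46 ± 0.07 from 100 to 1000 µM (adjusted p 0.00037).

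POLH (ENSG00000170734.11, chr6:43576150-43615660) encodes DNA polymerase eta, which copies past ultraviolet lesions. Its libraries read 27.1, 27.5 and 28.5 CPM at 0 µM, 23.2, 21.2 and 23.9 at 100 µM, and 17.1, 15.1 and 15.6 CPM at 1000 µM. The low doses, from 27.2 to 33.7 CPM with a median of 30.6, were level with or above the controls. POLH fell by 0.80 ± 0.08 (SE) on the log2 scale against 0 µM (adjusted p 1e-06, edgeR) and by 0.94 ± 0.07 against the low doses (adjusted p 7.9e-09, edgeR). XPC, another damage sensor of nucleotide excision repair, was at -0.09 against 0 µM (adjusted p 0.48, edgeR) and fell by 0.21 against the low doses (adjusted p 0.042). RRM2B, the p53-inducible subunit of ribonucleotide reductase, was at 0.07 (adjusted p 0.77, edgeR). With that correction for length and GC content, RRM2B turned direction and fell by 0.31 (adjusted p 0.026, edgeR).

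The death and survival genes split in direction. PHLDA3 (ENSG00000174307.6, chr1:201464383-201469237), which restrains AKT signalling, stood at 66.2, 68.8 and 60.3 CPM at 0 µM, 39.3, 38.9 and 35.5 at 100 µM, and 28.2, 26.4 and 20.9 CPM at 1000 µM. Its low-dose libraries spread from 36 to 60.7 CPM with a median of 46.9. The libraries at 1000 µM were the lowest of all, and the low doses reached from the level at 100 µM up to that of the controls. PHLDA3 fell by 1.37 ± 0.12 (SE) on the log2 scale against 0 µM (adjusted p 3.4e-07, edgeR) and by 0.91 ± 0.10 against the low doses (adjusted p 2.7e-06, edgeR).

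TRIAP1 (ENSG00000170855.4, chr12:120443961-120446412), a small mitochondrial protein that protects against apoptosis, read 53.7, 48.7 and 43.3 CPM at 0 µM and 19.9, 28.8 and 26.1 CPM at 1000 µM. At 100 µM it read 33.2, 31.5 and 26.5 CPM, and the low doses spread from 24.3 to 48.1 CPM with a median of 32. TRIAP1 fell by 0.96 ± 0.20 (SE) on the log2 scale (adjusted p 0.00088, edgeR), and its libraries at 100 and 1000 µM overlapped. Between those doses its difference was -0.29 (adjusted p 0.36, edgeR).

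TP53INP1 (ENSG00000164938.14), which promotes autophagy and p53-dependent death, was the only target that rose at 1000 µM. Its libraries stood at 20.5, 20.9 and 21.7 CPM at 0 µM, 18.6, 18.1 and 17.2 at 100 µM, and 30.3, 35.4 and 37.5 CPM at 1000 µM. The low doses ran from 16.9 to 26.2 CPM with a median of 21.8, so the 3 libraries at 1000 µM were above the other 18. TP53INP1 rose by 0.71 ± 0.14 (SE) on the log2 scale against 0 µM (adjusted p 0.00084, edgeR), by 0.68 ± 0.11 against the low doses (adjusted p 0.00011) and by 0.94 ± 0.15 against 100 µM (adjusted p 0.0003). At 100 µM its difference from 0 µM was -0.23 (adjusted p 0.34, edgeR), and -0.39 with length and GC content corrected for (adjusted p 0.0357). Corrected for transcript length and GC content, the rise at 1000 µM was 0.35 (adjusted p 0.0143, edgeR).

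Death receptors did not move as a block. FAS stood at 40, 35.8 and 40.4 CPM at 0 µM and 23.7, 30.6 and 30.7 CPM at 1000 µM, with no overlap, and fell by 0.45 ± 0.11 (SE) on the log2 scale (adjusted p 0.0031, edgeR). The TRAIL receptor genes TNFRSF10A and TNFRSF10B were at 0.01 (adjusted p 0.94, edgeR) and 0.12 (adjusted p 0.52). EDA2R, a receptor for ectodysplasin, was at 9.4, 11.1 and 12 CPM in the controls and at 11.5 to 20 CPM in the low-dose libraries, with a median of 15.4. It rose by 0.50 ± 0.12 (SE) on the log2 scale at the low doses together (adjusted p 0.011, edgeR) and was at 0.29 at 1000 µM (adjusted p 0.11). TP53I3, an oxidoreductase linked to oxidative stress, fell by 0.61 ± 0.15 (SE) at 1000 µM (adjusted p 0.0032, edgeR), and its fall was 0.38 at the low doses (adjusted p 0.028). Corrected for length and GC content, TP53I3 was at -0.32 at 1000 µM (adjusted p 0.0721, edgeR) and at -0.23 at the low doses (adjusted p 0.146). The nuclease gene AEN was at -0.27 against 0 µM (adjusted p 0.1, edgeR), and the RNA-binding gene ZMAT3 at -0.23 (adjusted p 0.19). The same correction gave ZMAT3 a log2 fold change of -0.69 against 0 µM (adjusted p 1.3e-06, edgeR), and EDA2R one of -0.30 against the low doses (adjusted p 0.034).

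None of the feedback genes passed at 1000 µM without the correction for length and GC content, and PPM1D passed with it. MDM2 (ENSG00000135679.24, chr12:68808176-68850686) encodes the ubiquitin ligase that marks p53 for degradation, and its promoter stretch above carries a close match to the p53 element. Its libraries read 290, 259 and 301 CPM at 0 µM, 264, 232 and 258 at 100 µM, and 269, 262 and 265 CPM at 1000 µM. The low doses ran from 244 to 350 CPM with a median of 287, and the groups at 0, 100 and 1000 µM overlapped one another and this range. The log2 difference at 1000 µM was -0.09 ± 0.11 (SE) against 0 µM (adjusted p 0.51, edgeR) and -0.10 ± 0.09 against the low doses (adjusted p 0.38). PPM1D, the phosphatase WIP1 that reverses p53 activation, was at -0.04 ± 0.07 (SE, adjusted p 0.73, edgeR) at 1000 µM. Corrected for length and GC content, PPM1D fell by 0.26 against 0 µM (adjusted p 0.0017, edgeR) and by 0.22 against the low doses (adjusted p 0.0013). CCNG1, cyclin G1, which recruits a phosphatase to MDM2, was at 0.29 ± 0.15 (SE, adjusted p 0.12, edgeR). A difference between MDM2 and CDKN1A was not tested as such, and a p that misses the threshold does not show an equal level.

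Among the metabolic and organelle genes, FDXR led. FDXR (ENSG00000161513.12, chr17:74862497-74873031) encodes ferredoxin reductase, which passes electrons to mitochondrial ferredoxins. Its libraries stood at 176, 176 and 156 CPM at 0 µM, 118, 112 and 101 at 100 µM, and 81.4, 80.5 and 65.7 CPM at 1000 µM. The low doses spread widely, from 73 to 160 CPM with a median of 123, and overlapped both the controls and the top dose. FDXR fell by 1.16 ± 0.17 (SE) on the log2 scale against 0 µM (adjusted p 4.3e-05, edgeR) and by 0.65 ± 0.14 against the low doses (adjusted p 0.0014, edgeR). Corrected for length and GC content FDXR fell by 0.70 from 0 µM and by 0.41 from the low doses. From 100 to 1000 µM its corrected difference was -0.26 (adjusted p 0.14, edgeR).

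SESN1 (ENSG00000080546.13, chr6:108986437-109094819), a sestrin that limits mTORC1 signalling, read 38.3, 37.8 and 37 CPM at 0 µM, 33.9, 34.2 and 27.4 at 100 µM, and 24.6, 31.4 and 28.4 CPM at 1000 µM. The low doses ran from 27.3 to 44.4 CPM with a median of 36, on both sides of the controls. SESN1 fell by 0.42 ± 0.14 (SE) on the log2 scale (adjusted p 0.023, edgeR). Its adjusted p was 0.0534 with no expression filter (edgeR), and 0.0555 to 0.132 without any single one of 0 µM replicates 1, 2 and 3 or 1000 µM replicates 1 and 3. SPATA18 (ENSG00000163071.11, chr4:52051331-52097292), a mitochondrial quality control gene, read 16.8, 15.4 and 15.9 CPM at 0 µM, 14.2, 15.1 and 15 at 100 µM, and 11.5, 13.1 and 13.3 CPM at 1000 µM. Its low doses ran from 13.7 to 19.4 CPM with a median of 16.8, and no library at any other dose was as low as those at 1000 µM. SPATA18 fell by 0.35 ± 0.10 (SE) on the log2 scale (adjusted p 0.013, edgeR), with an adjusted p of 0.0968 without the filter, 0.0566 without 0 µM replicate 1 and 0.0900 without 1000 µM replicate 1. TIGAR, which redirects glucose toward the pentose phosphate pathway, was at -0.19 (adjusted p 0.18, edgeR), and the autophagy gene DRAM1 at -0.14 (adjusted p 0.47). After correction for length and GC content SPATA18 fell by 0.57 against 0 µM (adjusted p 7e-06, edgeR) and TIGAR by 0.28 against the low doses (adjusted p 0.03).

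The remaining targets fell in 3 of 5 cases. CMBL (ENSG00000164237.9, chr5:10275875-10308026), a hydrolase gene, read 29.9, 29.4 and 24.3 CPM at 0 µM, 24, 22.1 and 20.1 at 100 µM, and 15.8, 18.2 and 14.9 CPM at 1000 µM. The low doses ran from 18.9 to 30.8 CPM with a median of 25.9, above every library at 1000 µM. CMBL fell by 0.77 ± 0.16 (SE) on the log2 scale (adjusted p 0.00081, edgeR). TRIM22 (ENSG00000132274.16, chr11:5689689-5737089), an interferon-inducible antiviral gene, read 4.45, 4.38 and 5.26 CPM at 0 µM, 4.55, 4.7 and 5.41 at 100 µM, and 2.46, 3.3 and 3.36 CPM at 1000 µM. Its low doses ran from 4.15 to 6.61 CPM with a median of 5.12, so TRIM22 was low at the top dose alone. TRIM22 fell by 0.63 ± 0.16 (SE) on the log2 scale (adjusted p 0.0038, edgeR) and by 0.68 against 100 µM (adjusted p 0.0062).

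RPS27L (ENSG00000185088.14, chr15:63125872-63158021), a ribosomal protein paralog that shares sequence with RPS27, varied most between libraries of a dose. It read 109, 98.2 and 65.4 CPM at 0 µM, 52.2, 48.1 and 42.1 at 100 µM, and 35.6, 62.7 and 37.4 CPM at 1000 µM. The low doses ran from 44 to 128 CPM with a median of 58.2, overlapping every other group. RPS27L fell by 1.01 ± 0.30 (SE) on the log2 scale (adjusted p 0.013, edgeR). Without 0 µM replicate 1, 1000 µM replicate 1 or 1000 µM replicate 3 its adjusted p was 0.0583, 0.0638 and 0.0634 (edgeR). BLOC1S2, a lysosome-related organelle subunit, was at -0.40 (adjusted p 0.18, edgeR), and SUSD6, a membrane protein gene, at 0.07 (adjusted p 0.52). After correction for length and GC content BLOC1S2 fell by 0.51 (adjusted p 0.031, edgeR).

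**Figure D4:**
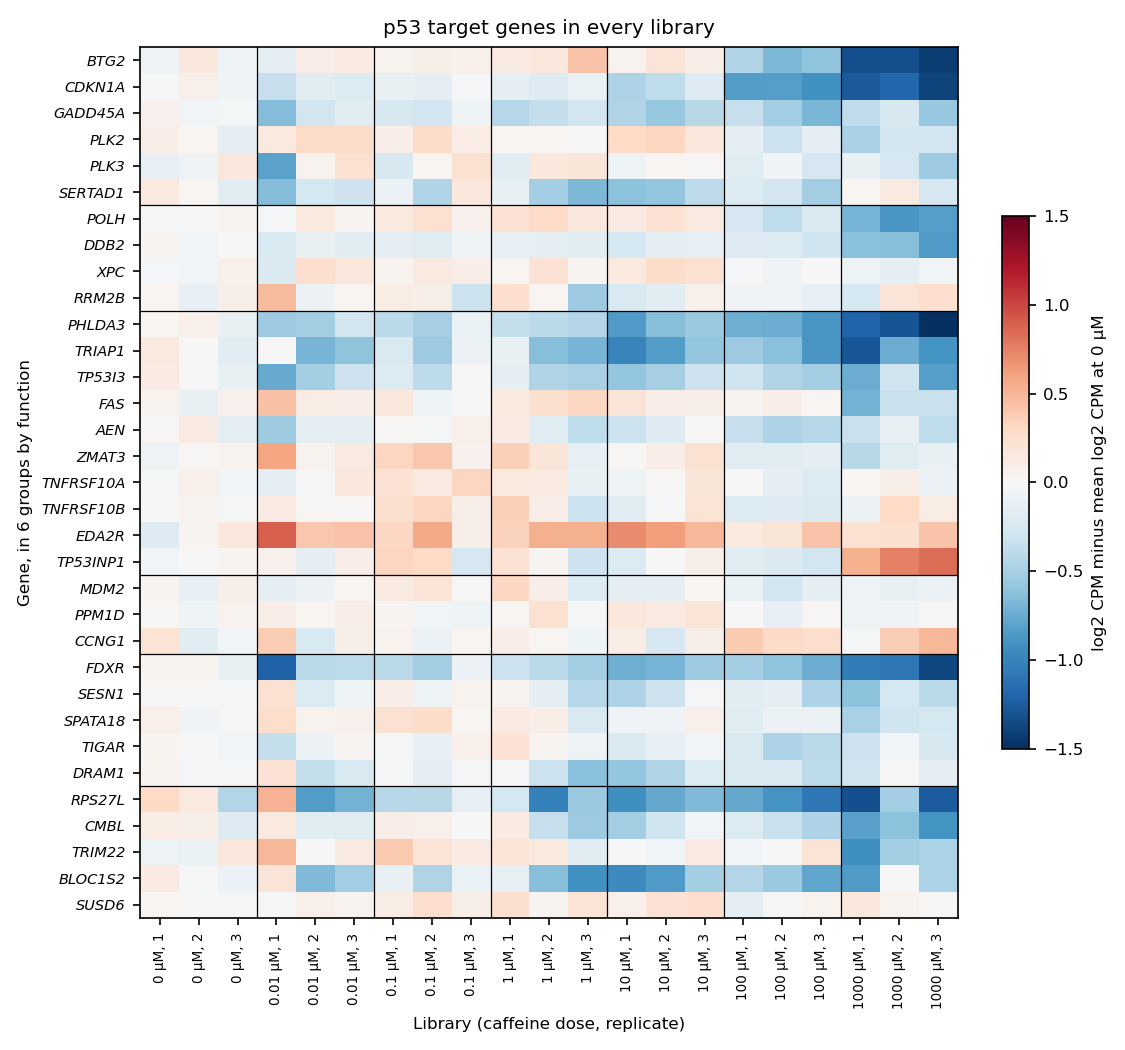
Log2 CPM of each of the 33 p53 targets minus its mean log2 CPM at 0 µM, as colour (red higher, blue lower, ends at 1.5 and -1.5), with genes in 6 groups by function as rows and the 21 libraries in order of dose as columns. CDKN1A, BTG2, PHLDA3 and FDXR are deep blue at 1000 µM, TP53INP1 is red there, and the 3 feedback genes stay pale apart from CCNG1.

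At 100 µM fewer targets passed the test than at 1000 µM, as did fewer of all genes. Against 0 µM, 7 targets passed as lower and 0 as higher, where 3.27% and 2.74% of all genes passed (quasi-likelihood test of edgeR, Benjamini-Hochberg adjusted). They were BTG2, CDKN1A, FDXR, GADD45A, PHLDA3, POLH and TRIAP1, all of which also fell at 1000 µM, in a comparison that shares the same controls. Corrected for length and GC content, these 7 still passed as lower, and TP53INP1, ZMAT3 and RPS27L joined them. The correction took the length of 1 transcript per gene, 6434 bases for RPS27L, and no other choice was tested. CCNG1 then passed as higher, by 0.29 (adjusted p 0.0491, edgeR). The median over the 33 genes was -0.23 and over all genes -0.00, with 29 of 33 under 0, where 26 were at 1000 µM. Of all genes 50.4% were under 0 at 100 µM and 51.9% at 1000 µM. In 22 of the 33 all 3 libraries at 100 µM lay under the controls, against 22% of all genes, where 18 did at 1000 µM. DESeq2 called 12 lower and 0 higher at this dose, with its share of all genes not given here. At an unadjusted p under 0.05, met by 25.6% of all genes, 14 targets were lower and 0 higher. The edgeR count of lower targets was 2 without 0 µM replicate 2, 100 µM replicate 2 or 100 µM replicate 3. It was 3 without 0 µM replicate 1 and 4 without 100 µM replicate 1. Shares of all genes in these smaller fits are not given here.

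Comparisons that leave the controls out gave the drop within the treated cells. From 100 to 1000 µM 8 targets fell and TP53INP1 rose, where 6.55% and 8.15% of all genes passed (edgeR). The 8 were BTG2, CDKN1A, DDB2, FAS, FDXR, PHLDA3, POLH and TRIM22. Corrected for length and GC content, FDXR no longer passed, and SPATA18, CMBL and ZMAT3 passed as lower. The median over the 33 targets was -0.07, and it was 0.03 without 1000 µM replicate 1, so the sign of the set's median between these doses rested on that library. Against the low doses, 3 targets fell at 100 µM, where 0.166% of all genes did, and 0 rose, where 0.281% did (edgeR). The 3 were BTG2, CDKN1A and POLH. DESeq2 called 4 lower and 0 higher, with its share of all genes not given here. At an unadjusted p under 0.05, met by 9.38% of all genes, 15 targets were lower and 1 higher. In this comparison 31 of the 33 targets were under 0, against 50.5% of all genes, with a median of -0.18.

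At the lowest doses the targets did not shift together. Their median log2 fold change against 0 µM was 0.00, 0.02, 0.01 and -0.09 for caffeine at 0.01, 0.1, 1 and 10 µM in turn. At 0.1 and 1 µM 0 targets passed, as did 0% of all genes (edgeR), with 3 and 11 targets at an unadjusted p under 0.05, which 15.2% and 22.8% of all genes had. DESeq2 called 0 at 0.1 µM, and 1 lower and 2 higher at 1 µM, with its shares of all genes not given here. At 0.01 µM FDXR, PHLDA3 and TP53I3 fell and EDA2R rose, where 2.08% and 2.87% of all genes passed. No target fell there with length and GC content corrected for, nor without 0 µM replicates 1 or 2 or without 0.01 µM replicates 1 or 2. At 10 µM 8 targets fell and EDA2R rose, where 10.7% and 11.3% of all genes passed. The count of lower targets at 10 µM was 2 without 0 µM replicate 1 or 10 µM replicate 1, and 5 without replicate 2 of either group. For these fits with a library left out, the shares of all genes are not given here.

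The 12 low-dose libraries as 1 group differed from 0 µM in 6 lower targets and EDA2R higher, where 8.93% and 9.31% of all genes passed (edgeR). The lower ones were CDKN1A, FDXR, GADD45A, PHLDA3, TP53I3 and TRIAP1. Without 0 µM replicate 1 the count was 0, without 0 µM replicate 2 it was 1, and without 1 µM replicate 2 it was 3. The shares of all genes in these fits are not given here. Transcript length moved with this difference: over 15694 genes, Spearman's rho between log2 fold change and transcript length was 0.499, and over the 33 targets 0.503, genes not being independent replicates. At 1000 µM against 0 µM the values were 0.439 and 0.422, and at 100 µM against the low doses -0.0918 and -0.279. With length and GC content corrected for, 18 targets were lower and 1 higher at 1000 µM against 0 µM. At the low doses 3 were lower, namely FDXR, PHLDA3 and RPS27L, and FAS and EDA2R were higher (adjusted p 0.049 and 0.012, edgeR). CDKN1A was then at -0.08 (adjusted p 0.36, edgeR), and GADD45A, TP53I3 and TRIAP1 no longer passed either. The shares of all genes passing under this correction are not given here. At 1000 µM against 0 µM the correction added RRM2B, PPM1D, ZMAT3 and BLOC1S2 to the lower targets and removed GADD45A and TP53I3.

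The slope over the ordered doses, numbered 0 to 6, was negative in 16 targets and positive in 0, where 14.5% of all genes passed in each direction (edgeR). By DESeq2 0 were positive, with its share of all genes not given here. At an unadjusted p under 0.05, met by 40.9% of all genes, 20 slopes were negative and 2 positive. Without the 3 libraries at 1000 µM the negative slopes numbered 6, with the share of all genes in that fit not given here.

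Strand use in the counting is not given in the sources used here. Exons of 13 targets overlap another gene in GENCODE v29, among them CDKN1A with the antisense DINOL, POLH with GTPBP2, FAS with ACTA2 and MDM2 with AC025423.2, and reads there cannot be told apart. Of the 16 targets lower at 1000 µM, 10 have no such overlap.

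Of 23 genes tested from a list of 24 in p53 regulation, 9 rose, 1 fell and 13 did not pass at 1000 µM, where 20.6% of all genes rose and 20.6% fell. The coactivator genes EP300 and CREBBP rose by 0.98 and 0.92 on the log2 scale, the kinase gene HIPK2 by 0.93 and the deacetylase gene SIRT1 by 0.84. The checkpoint kinase gene CHEK2 fell by 0.44. Against the low doses, where 16.3% of all genes rose and 14.4% fell, 1 of the 23 rose, SIRT1 by 0.70 ± 0.12 (SE, adjusted p 0.00018, edgeR), and EP300 was at 0.11 (adjusted p 0.63). The 1 that fell in that comparison, named after its value was seen, was the checkpoint kinase gene ATR, by 0.50 ± 0.13 (SE, adjusted p 0.0051, edgeR). Protein levels and modification were not measured.

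A further 30 p53 targets outside the set moved in both directions, with 9 lower and 8 higher at 1000 µM (20.6% of all genes each way) and a median of 0.03. The pore-forming death gene BAX read 110, 108 and 82.2 CPM at 0 µM and 47.9, 45.9 and 39 CPM at 1000 µM. BAX fell by 1.18 ± 0.14 (SE) on the log2 scale (adjusted p 7.1e-06, edgeR), and PIDD1, a death-domain gene, by 0.96. ISCU, an iron-sulfur cluster scaffold, fell by 0.60 and the glutaminase gene GLS2 by 0.59. GDF15, a stress cytokine gene, read 199, 218 and 255 CPM at 0 µM and 674, 442 and 489 CPM at 1000 µM. GDF15 rose by 1.26 ± 0.23 (SE) on the log2 scale (adjusted p 0.00031, edgeR). ABHD4 rose by 1.25, PERP by 0.63 and FOXO3 by 0.57. All 8 of these genes named passed in the same direction against the low doses as well.

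Genes that p53 lowers through p21 and the DREAM repressor complex were also measured. Of 20 tested, 3 rose and 4 fell at 1000 µM, near the 20.6% of all genes called each way, with a median of -0.07. BUB1, TOP2A and PRC1, which act in mitosis, rose by 0.48, 0.41 and 0.40 on the log2 scale. BIRC5, CDC20, AURKB and E2F1, of mitosis and the G1/S transition, fell by 0.78, 0.60, 0.56 and 0.45. Against the low doses BUB1 rose, CDC20, AURKB and E2F1 fell, and the other 16 of 20 did not pass. Of all genes 16.3% rose and 14.4% fell in that comparison.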

How the data were processed

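RNA of 21 HepG2 libraries was analysed, 3 at each of 7 caffeine doses. The authors deposited raw counts per gene in 1 table, without scaling; the submitters' processing notes name HISAT2, DESeq2 and GRCh38 without roles, and the counting program, annotation and strand setting are not given in the sources used here. Of the per-sample columns, 21 matched no sample given here and were not used. Libraries of a dose differed by more than counting noise.

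Counts were fitted as deposited with edgeR 4.0.16 (R 4.3.3): TMM scaling, expression filter at a minimum count of 10, quasi-likelihood test, 7 groups, 14 residual degrees of freedom and 17468 genes tested, 1617 of them unannotated features. P-values were adjusted over all of these by the Benjamini-Hochberg method (threshold 0.05). The low doses are the mean of the 0.01, 0.1, 1 and 10 µM groups. SE is the log2 fold change over the square root of F, and CPM use TMM-scaled totals. Scripts were tested on simulated data.

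The 33 genes, their functional groups and the other lists were chosen with earlier results of these data known. Per-library values are given for CDKN1A, MDM2, up to 3 genes per functional group with the largest change past the threshold at 1000 µM, and any that rose; FAS and EDA2R were added after their values were seen. Of each other list, up to 4 genes per direction with a mean of at least 1 CPM are named, and 1 further gene that the rule names is not reported here. Coordinates and exon overlaps come from GENCODE v29. Alternatives were DESeq2 1.42.0, RLE scaling, other filters and thresholds, a replicate block, fewer libraries, each library left out and, chosen after seeing the data, a correction for transcript length and GC content.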

Additional observations from a re-analysis of the deposited data

How the results depend on the processing

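Leaving out single libraries, the count of lower targets at 1000 µM was 11 to 16 against 0 µM, 11 to 16 against the low doses and 7 to 8 against 100 µM, and the slope count ran from 12 to 17. Against 0 µM the same removals gave 2 to 6 for 100 µM, 2 to 9 for 10 µM, 0 for 1 µM, 0 to 1 for 0.1 µM, 0 to 3 for 0.01 µM and 0 to 8 for the low doses, and 100 µM against the low doses gave 2 to 4. Median log2 fold changes ran from -0.35 to -0.25 (1000 against 0 µM), -0.25 to -0.20 (100 against 0 µM), -0.29 to -0.20 (1000 µM against the low doses) and -0.082 to 0.034 (1000 against 100 µM), the last turning sign without 1000 µM replicate 1.

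DESeq2 called 12 lower for 100 µM, 5 for 0.01 µM and 1 for 1 µM. With no filter 1 was lower at 0.01 µM. At an adjusted p under 0.01 the counts were 3 for 100 µM, 4 for 10 µM, 0 for 0.01 µM, 1 for the low doses together and 10 for the slope. With only the libraries of the groups compared they were 17 at 100 µM and 0 at 0.01 µM. The slope without 1000 µM gave 6. Length and GC correction gave 0 at 0.01 µM, 3 for the low doses and 5 for 100 µM against them. A replicate block gave 4 at 100 µM and 0 at 0.01 µM; same-numbered libraries deviated together with a mean correlation of -0.02, and 5 of 21 libraries correlated best with their own number, so the numbers did not pair the libraries. The cause of these changes was not tested. These counts of lower targets stand without the share of all genes passing under the same settings. Over 15 named targets and 210 repeated values, 191 kept direction and side of the threshold, 19 no longer passed and 0 changed direction. Most of the 15 were picked for large changes at 1000 µM, so these values do not describe the whole set. Outside them, length and GC correction turned RRM2B from 0.07 to -0.31 at 1000 against 0 µM. It also turned SUSD6 from 0.07 to -0.07 and SERTAD1 from -0.02 to 0.16, neither past the threshold. A count of 0 allows up to 3 counts, 0.0735 to 0.107 CPM, far under every target's level, and covers counting error only.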
